A study of Mus musculus with 4 samples.

Results

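The comparison set macrophages exposed to palmitic acid, a saturated fatty acid of 16 carbons, against macrophages exposed to linoleic acid, a polyunsaturated fatty acid of 18 carbons with 2 double bonds. The acids differ in chain length as well as in double bonds, so the parts of chain length and of double bonds in a difference cannot be told apart. Genes were taken from probes that name exactly 1 gene, probes of a gene were averaged, and genes that reached log2 7.09, the median of all values, in at least 1 of the 4 arrays were kept. This left 11174 of 19938 genes, each described by its log2 value with palmitic acid minus its log2 value with linoleic acid.

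The cells were peritoneal macrophages of C57BL/6 mice aged 8 to 12 weeks, collected 3 days after 1 mL of 4% thioglycolate, an irritant that recruits monocytes and macrophages into the cavity. Cells that had not attached 3 h after plating were washed away, and the rest were kept for 6 h with a fatty acid at 500 µM bound to bovine serum albumin (BSA). The 4 groups were palmitic acid, linoleic acid, oleic acid (18 carbons, 1 double bond) and a control without fatty acid, which its label calls BSA alone and the treatment protocol describes as ethanol and KOH vehicle. All groups therefore share the irritant, the strain and the plating. RNA of 3 samples with an RNA integrity number above 8.0 was pooled per group and measured on 1 Affymetrix array, and it is not said whether the 3 samples came from separate mice. With 1 array per group there is no spread between samples, and no test, interval or error can be given for any difference below.

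Palmitic acid is the main product of fatty acid synthesis and, in excess, is known to load membranes and the endoplasmic reticulum (ER) with saturated lipid and to activate stress kinases in macrophages. Unsaturated fatty acids are more readily stored as triglyceride in lipid droplets, and polyunsaturated acids are known to hold back SREBP, the transcription factor of sterol and fatty acid synthesis. Macrophages sense fatty acids through nuclear receptors of the PPAR family, through sterol sensors and through the unfolded protein response.

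With palmitic acid 177 genes were at least 1.5-fold higher than with linoleic acid (1.58% of the kept genes) and 225 were at least 1.5-fold lower (2.01%), together 402 genes (3.6%). At 2-fold the counts were 31 higher (0.277%) and 51 lower (0.456%). In 394 of the 402 genes the control array was nearer to linoleic than to palmitic acid, so most of these differences also separate palmitic acid from the control. Higher genes made up 44.0% of the 402, and 53.1% when each array was centred on its own median, so which direction held more genes depended on the scaling. The array medians were 7.08 with palmitic acid and 7.13 with linoleic acid, a difference of -0.04, and the median difference over kept genes was -0.03. List medians below are to be read beside that value, and those within 0.05 of 0 are given with no direction. The counts of list members past the line are to be read beside 1.58% higher and 2.01% lower over all kept genes. Counts of members above or below 0 are to be read beside 4748 kept genes above 0 (42.5%) and 6425 below it.

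Most genes differed little. The quartiles of the difference were -0.15 and 0.09, and the robust SD over genes was 0.175. The lowest and highest percent of genes lay beyond -0.79 and 0.68. Over all probes the arrays correlated at r = 0.993, a description of these arrays. The robust SD narrowed from 0.196 among genes with a mean of log2 9 to 10 to 0.0691 among the 152 genes at 13 or above, of which 1 was past 1.5-fold. Several cytokine genes described below lie in that bright range.

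**Figure D1:**
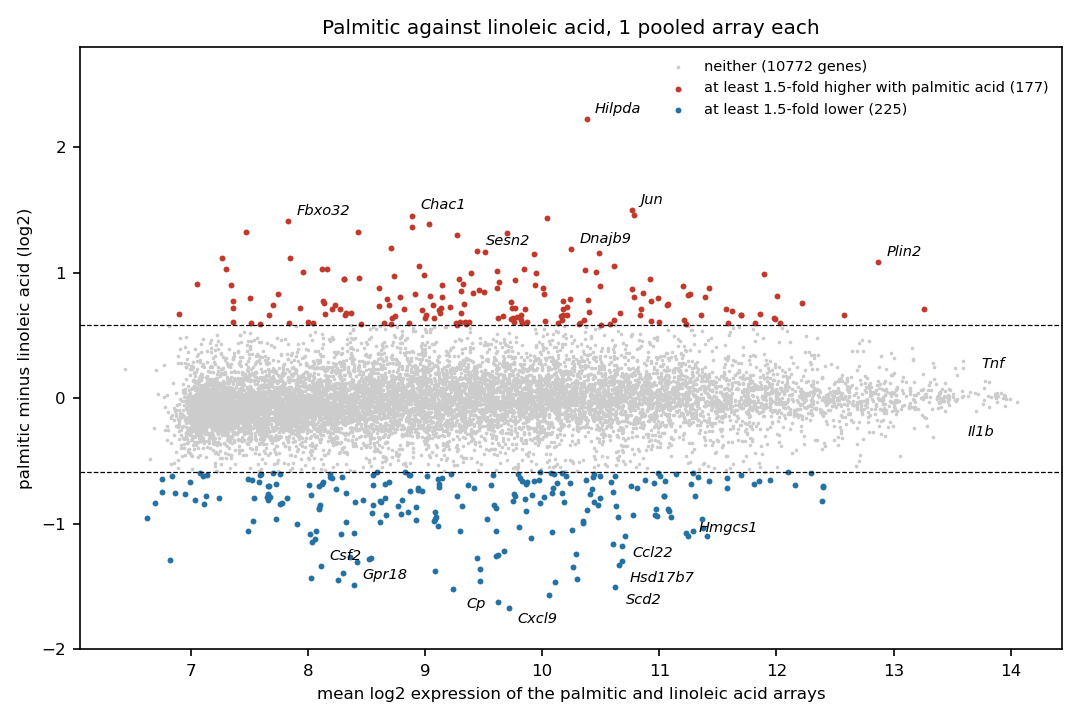
Each point is a kept gene, with the mean of its palmitic and linoleic acid log2 values on the horizontal axis and the palmitic minus linoleic difference (log2) on the vertical axis. Dashed lines mark 1.5-fold. The 177 genes in red and 225 in blue lie outside them, Hilpda stands alone at 2.22, and Tnf and Il1b at the bright end lie within the lines.

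The genes nearest the 1.5-fold line show how little separates a counted gene from an uncounted one. Zswim4, Flvcr1 and Herpud1 lay just inside at 0.59, and Pkp4, Mrtfb and Rchy1 just outside at 0.58. On the lower side Lrrc8c, Polm and Abi3 were at -0.59, and Dram1, Gpr132 and Fkbp5 at -0.58. Of the genes named here, 15 lower ones fell short of 1.5-fold when each array was centred on its median: Abi3, Dusp6, Gpr141, Jund, Lif, Lipe, Lrrc8c, Mki67, Msmo1, Mt2, P2ry6, Pcyt2, Polm, Tnfaip8l3 and Usp21. Setting values below the median of all values to that median did the same for Kit, Klra2, Lif and Spib, whose palmitic acid values were dim. Only 21 of the 402 genes had several probes, and their probes agreed in direction in all 21, while the other 381 rest on 1 probe each.

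Genes of the lipid droplet, where cells store fatty acid as triglyceride, held the furthest difference. Hilpda, whose protein inhibits the lipase that opens lipid droplets, was at log2 11.49 with palmitic acid, 9.27 with linoleic acid, 11.66 with oleic acid and 9.32 in the control, the largest difference of all named genes at 2.22, or 4.67-fold. Plin2, the coat protein of lipid droplets, was at 13.41, 12.32, 13.43 and 12.21 in the same order, a difference of 1.09. In both genes palmitic and oleic acid were high together, and linoleic acid lay beside the control. Plin3, a second droplet coat gene, was at 10.48 with palmitic acid, 9.86 with linoleic acid, 10.09 with oleic acid and 9.87 in the control (0.62). Mgll, the lipase of monoacylglycerol, was at 9.33 with palmitic acid against 8.62 with linoleic acid, 8.65 with oleic acid and 8.58 in the control (0.71). For Mgll the palmitic acid array alone was high.

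The enzymes of triglyceride turnover did not all share this direction. Dgat2, which completes triglyceride synthesis, was at 7.17 with palmitic acid, 7.81 with linoleic acid, 7.51 with oleic acid and 7.63 in the control (-0.64). Lipe, the hormone-sensitive lipase, was at 8.92, 9.52, 9.31 and 9.30 in that order (-0.60). Of the 25 kept lipid droplet and triglyceride genes, 4 were past 1.5-fold on the higher side and 2 on the lower, with a list median of 0.05.

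PPAR target genes, which nuclear receptors of fatty acids switch on, were 4 higher and 1 lower among 19 kept, with a median of 0.07. The higher genes were Hilpda, Plin2, Cpt1a and Rgcc. Cpt1a, which commits fatty acids to mitochondrial oxidation, was at 11.66 with palmitic acid, 10.84 with linoleic acid, 12.08 with oleic acid and 10.73 in the control (0.82). Rgcc, a regulator of the cell cycle, was at 9.73 with palmitic acid and between 8.34 and 8.51 in the other arrays (1.39). Tsc22d1, a leucine zipper protein gene, was the lower one, at 9.35 with palmitic acid, 10.16 with linoleic acid, 9.88 with oleic acid and 10.11 in the control (-0.82).

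Other classical PPAR targets were not past the line. Angptl4, an inhibitor of lipoprotein lipase, was at 7.67 with palmitic acid, 7.29 with linoleic acid, 8.22 with oleic acid and 7.27 in the control (0.38). Fabp4, a fatty acid carrier, was at 11.20, 10.72, 11.04 and 10.86 (0.48). Of 23 kept carnitine shuttle and oxidation genes, Cpt1a alone was past the line. That is 1 higher (4.35%) and 0 lower, against 1.58% and 2.01% of all kept genes. The list's median was -0.06 for palmitic minus linoleic acid and 0.14 for oleic minus linoleic acid. Hilpda, Plin2 and Cpt1a were thus high with palmitic and oleic acid, which differ in saturation, and near the control with linoleic acid.

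Fatty acid uptake and activation genes showed 0 higher and 1 lower of 17 kept, with a median of -0.09. The lower gene was Gpr84, a receptor of medium-chain fatty acids, at 11.98 with palmitic acid, 12.80 with linoleic acid, 12.53 with oleic acid and 12.68 in the control (-0.82). Cd36, the fatty acid translocase, differed by 0.04.

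**Figure D2:**
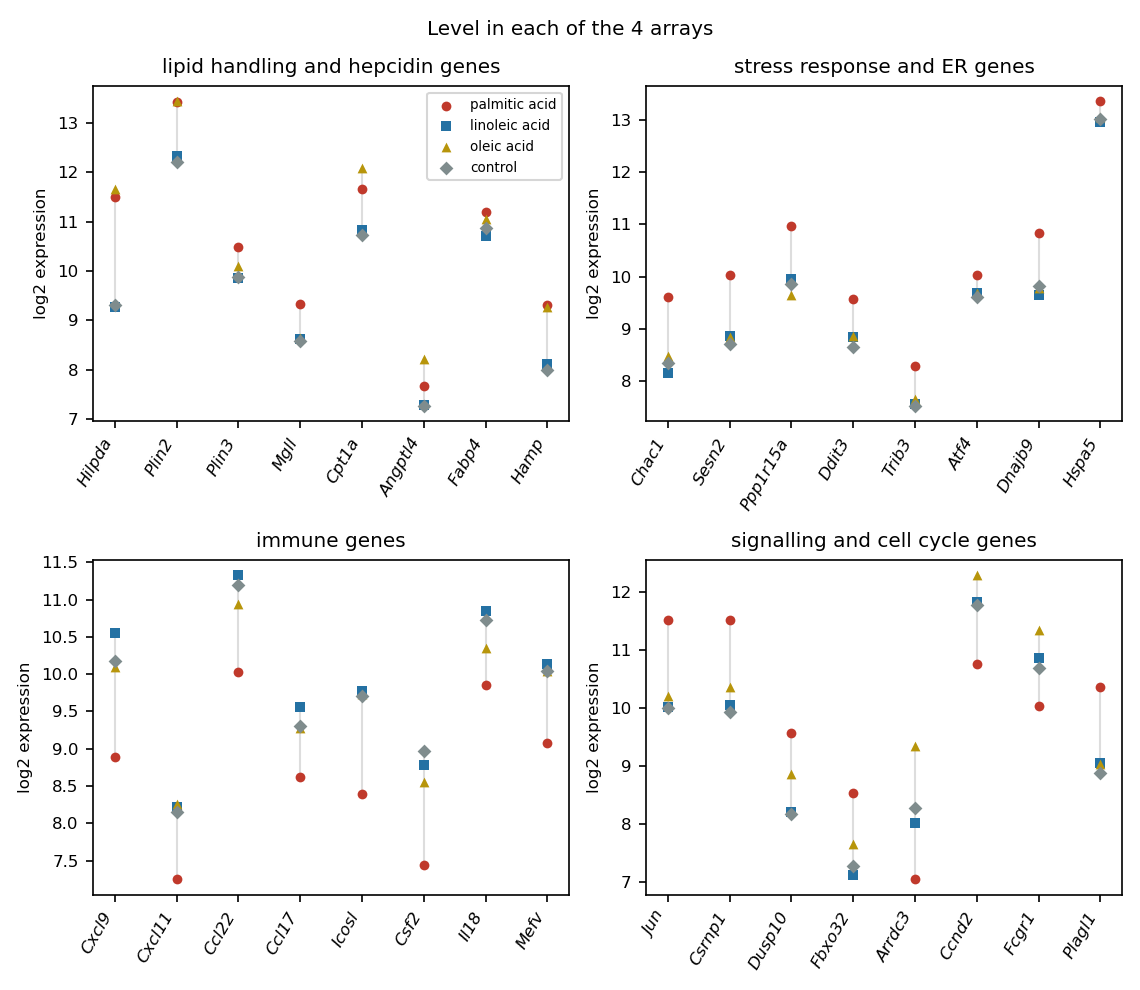
The log2 level of 32 genes in each array, with palmitic acid as circles, linoleic acid as squares, oleic acid as triangles and the control as diamonds. Each symbol is 1 pooled array, and levels are comparable between arrays of a gene but not between genes. Hilpda, Plin2 and Hamp are high in both the palmitic and the oleic acid array, whereas Chac1, Jun, Ddit3 and Plagl1 are high in the palmitic acid array alone.

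The cholesterol synthesis enzymes had the largest share of members past the line of all lists. All 17 kept enzyme genes were below 0, and for 13 of them palmitic acid was at least 1.5-fold under linoleic acid (0 higher), with a list median of -0.78 beside -0.03 for all kept genes. The median stayed between -0.81 and -0.73 over the alternatives, with 11 to 13 genes lower at 1.5-fold. Against the control the same genes had a median of -0.59 with palmitic acid and 0.14 with linoleic acid, comparisons that share the control array. The distance between the acids thus held a lower palmitic acid array and a slightly higher linoleic acid array.

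Near the start of the pathway, Hmgcs1, the synthase that makes hydroxymethylglutaryl-CoA, was at 10.69 with palmitic acid, 11.80 with linoleic acid, 10.72 with oleic acid and 11.57 in the control (-1.10). Among the mevalonate enzymes, Mvd was at 9.16, 10.01, 8.75 and 9.75 in the same order (-0.86). Idi1, the isomerase of the isoprenoid unit, was at 10.16, 11.26, 10.12 and 11.20 (-1.10). In all 3 genes the palmitic and oleic acid arrays were low and the linoleic acid array was the highest of the 4. Pmvk was lower as well (-0.79), and Mvk, at -0.54, was within the line.

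The squalene and sterol steps followed. Sqle, the squalene epoxidase, was at 10.05 with palmitic acid, 10.90 with linoleic acid, 9.66 with oleic acid and 10.69 in the control (-0.85). Lss, which closes the ring to lanosterol, was at 9.0, 10.25, 8.77 and 9.90 (-1.25). Hsd17b7, a keto reductase of the later sterol steps, was at 9.99, 11.32, 9.84 and 10.89 (-1.33), the furthest of the pathway. Cyp51, the lanosterol demethylase, differed by -0.89, Fdft1, the squalene synthase, by -0.78, Nsdhl by -0.73, Sc5d by -0.69, Fdps by -0.68 and Msmo1 by -0.61. The least different members were Tm7sf2 (-0.16), Ebp (-0.11) and Dhcr7 (-0.10), all late enzymes. Oleic acid lay nearer to palmitic than to linoleic acid in 13 of the 13 genes past the line, with a list median of -0.94 for oleic minus linoleic acid.

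**Figure D3:**
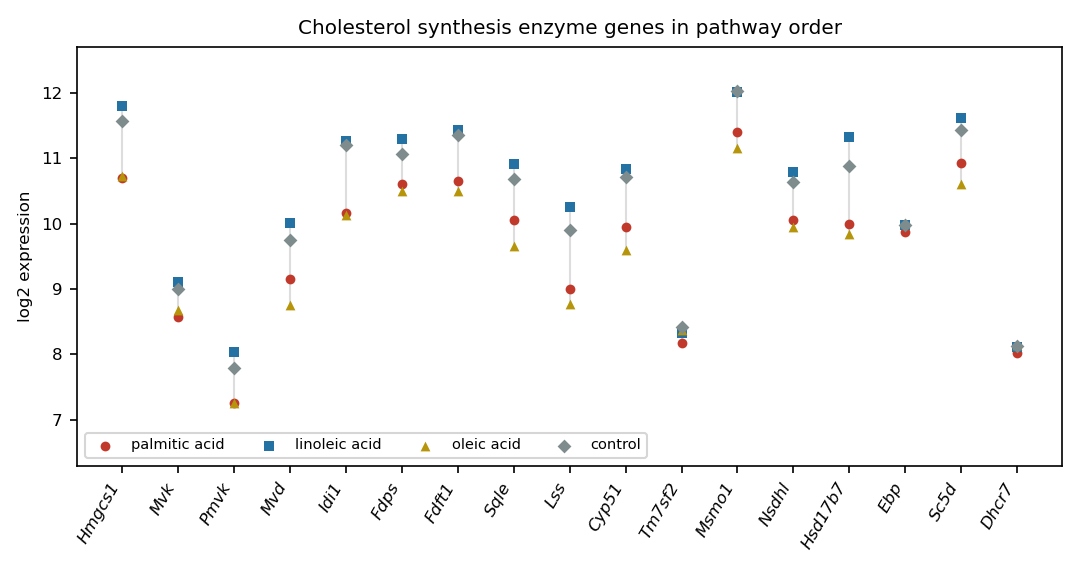
The log2 level of the 17 cholesterol synthesis enzyme genes in each array, ordered from the first to the last step, 1 pooled array per symbol. The linoleic acid squares lie above the palmitic acid circles in all 17 genes, and the oleic acid triangles lie with or below the circles in most of them.

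SREBP switches on sterol genes through a short sterol element in their promoters. The letters TCACNCCAC were searched on both strands of RefSeq promoter windows (GRCm38.p6), which run from 250 bases before to 50 bases after the start of a gene. They occurred in 1 of the 14 cholesterol enzyme genes with a window (7.14%), in 0 of 13 SREBP control genes, in 388 of 27025 windows of all genes (1.44%) and in 1.40% of those of kept genes. A match is a description of letters and not a bound site. The window with the match is that of Hmgcs1, shown because it was the only match among these genes. It lies at chr13:119690101-119690400 on the plus strand, with the matching letters in capitals.
Hmgcs1: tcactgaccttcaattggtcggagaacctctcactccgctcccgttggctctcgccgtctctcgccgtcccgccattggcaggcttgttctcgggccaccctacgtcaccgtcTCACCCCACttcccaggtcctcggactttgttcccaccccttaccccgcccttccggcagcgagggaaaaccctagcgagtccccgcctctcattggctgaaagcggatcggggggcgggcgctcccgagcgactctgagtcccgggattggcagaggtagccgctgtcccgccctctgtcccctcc

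Genes that control SREBP and sterol uptake were split. Of 16 kept, 0 were higher and 4 lower, with a median of -0.08. Stard4, a cholesterol carrier, was at 8.59 with palmitic acid, 9.57 with linoleic acid, 8.33 with oleic acid and 9.18 in the control (-0.98). Aacs, which feeds ketone bodies into lipid synthesis, was at 8.77, 9.46, 8.56 and 9.23 (-0.68). Both followed the enzyme genes, with oleic acid low as well. Insig1, the ER protein that holds SREBP back, did not: it was at 12.41 with palmitic acid, 12.45 with linoleic acid, 11.44 with oleic acid and 12.23 in the control (-0.05). For Insig1 the oleic acid array alone was low. Insig2 was at 9.97 with palmitic acid, 9.46 with linoleic acid, 9.63 with oleic acid and 9.50 in the control (0.52), short of the line.

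Fatty acid synthesis and desaturation genes had 0 higher and 4 lower of 19 kept, with a median of -0.22 and 17 of the 19 below 0. Scd2, a desaturase that puts the first double bond into saturated fatty acids, was at 9.87 with palmitic acid, 11.38 with linoleic acid, 9.46 with oleic acid and 11.15 in the control (-1.51). Fads2, which desaturates linoleic acid itself, was at 8.77, 9.83, 8.83 and 9.75 (-1.06). Neither gene was lower with linoleic acid than in the control. Elovl6, which lengthens palmitic acid, was at 7.74, 8.82, 7.99 and 8.75 (-1.08). Fasn, the fatty acid synthase, was at 9.42, 10.31, 9.01 and 9.96 (-0.90). Scd1 differed by -0.49. In 4 of the 4 genes past the line oleic acid lay nearer to palmitic acid.

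The list of sterol efflux genes and other genes tied to the receptor LXR shares Scd2, Mylip and Rnf145, among others, with the lists above. Of 16 kept, 0 were higher and 4 lower, with a median of -0.18 that became 0.01 with no filter on dim genes. Ch25h, which makes 25-hydroxycholesterol, was at 7.90 with palmitic acid and at 9.17 with linoleic acid, 9.02 with oleic acid and 8.92 in the control (-1.27). Rnf145, an ER ubiquitin ligase, was at 10.18, 11.12, 10.93 and 10.95 (-0.95). In these genes the palmitic acid array was the low one. Mylip, a ubiquitin ligase gene under LXR, was at 9.35 with palmitic acid, 10.46 with linoleic acid, 9.52 with oleic acid and 10.32 in the control (-1.11), so oleic acid was low too. Abca1, the cholesterol exporter, was at 11.96, 12.37, 12.06 and 12.26 (-0.41), within the line. Abcg1 (-0.39), Apoe (0.04) and Pltp (0.01) were within it too.

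Membrane lipid genes gave single differences. Among 22 kept phosphatidylcholine genes, 1 was higher and 2 lower, with a median of 0.02. Pcyt1a, the rate-limiting enzyme of phosphatidylcholine synthesis, was at 11.39 with palmitic acid and 10.45 with linoleic acid, 10.46 with oleic acid and 10.34 in the control (0.95). Lpcat1, which loads saturated chains onto phosphatidylcholine, was at 8.49, 9.36, 9.64 and 9.36 (-0.86). These 2 genes were set apart by the palmitic acid array alone. Pcyt2, of phosphatidylethanolamine synthesis, was lower with palmitic acid (-0.61) and lowest with oleic acid (8.42). Among 26 kept ceramide and sphingolipid genes, 1 was higher and 0 lower, with a median of 0.01. That gene was Ugcg, the glucosylceramide synthase, at 12.41 with palmitic acid, 11.60 with linoleic acid, 11.80 with oleic acid and 11.49 in the control (0.81). Sptlc2, a subunit of the enzyme that joins palmitoyl-CoA to serine, differed by 0.35.

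The integrated stress response, in which the factors ATF4 and CHOP answer protein folding stress and amino acid shortage, had 6 higher and 0 lower of 32 kept genes. Its median was 0.23, between 0.18 and 0.27 over the alternatives, and 24 of the 32 were above 0. Chac1, which breaks down glutathione, was at 9.62 with palmitic acid, 8.16 with linoleic acid, 8.49 with oleic acid and 8.36 in the control (1.46). Sesn2, which restrains the growth kinase mTORC1, was at 10.03, 8.86, 8.85 and 8.71 (1.17). Ppp1r15a, the phosphatase subunit that ends the response, was at 10.97, 9.96, 9.66 and 9.86 (1.01). In each the palmitic acid array was high and the other 3 lay close together.

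Further down the response, Ddit3, which codes for CHOP, was at 9.57 with palmitic acid, 8.85 with linoleic acid, 8.87 with oleic acid and 8.66 in the control (0.73). Trib3, a pseudokinase gene under CHOP, was at 8.29, 7.58, 7.67 and 7.53 (0.72). Oleic acid lay nearer to linoleic acid in all 6 genes past the line, the other side from the cholesterol enzymes. Atf4 itself, which is controlled largely at translation, was at 10.04, 9.68, 9.70 and 9.61 (0.36). Against the control the list's median was 0.10 with palmitic acid and 0.00 with linoleic acid. For palmitic minus oleic acid the list's median was 0.05, so the list as a whole hardly differed between these acids.

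ATF4 and its partners bind composite elements whose core was searched as TGATGNAA. It occurred in 7 of 29 stress response genes with a promoter window (24.1%), in 1219 windows of all genes (4.51%) and in 2.66% of the 8934 kept genes with a window. The list was chosen as genes of ATF4 and CHOP, so its larger share is no result about the acids. Of the 6 genes past the line with a window, 3 hold the core. Atf3, Asns, Nupr1 and Pck2 hold it too and were within the line. The 3 past the line are Chac1, Trib3 and Herpud1, all with the match on the strand opposite to the gene, and their windows are shown. The windows are chr2:119350992-119351291 on the plus strand, chr2:152344011-152344310 on the minus strand and chr8:94386179-94386478 on the plus strand, with the matching letters in capitals.
Chac1: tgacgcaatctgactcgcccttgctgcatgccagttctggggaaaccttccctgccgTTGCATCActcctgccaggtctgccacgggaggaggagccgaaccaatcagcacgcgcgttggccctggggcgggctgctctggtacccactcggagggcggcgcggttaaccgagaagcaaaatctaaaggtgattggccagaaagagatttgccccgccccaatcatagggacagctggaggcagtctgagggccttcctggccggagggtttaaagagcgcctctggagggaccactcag
Trib3: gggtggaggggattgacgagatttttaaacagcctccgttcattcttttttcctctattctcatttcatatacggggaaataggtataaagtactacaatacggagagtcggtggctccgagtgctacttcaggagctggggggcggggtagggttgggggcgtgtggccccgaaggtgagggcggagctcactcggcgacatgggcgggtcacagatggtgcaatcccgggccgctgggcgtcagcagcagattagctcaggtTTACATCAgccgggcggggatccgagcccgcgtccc
Herpud1: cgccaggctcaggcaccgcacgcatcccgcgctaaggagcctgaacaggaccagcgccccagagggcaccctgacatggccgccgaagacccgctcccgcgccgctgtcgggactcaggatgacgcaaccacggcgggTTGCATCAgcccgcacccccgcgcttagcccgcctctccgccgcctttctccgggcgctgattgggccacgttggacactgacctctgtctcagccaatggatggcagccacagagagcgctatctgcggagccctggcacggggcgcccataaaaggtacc
Counted from the start of the gene, the match began at -193 in Chac1, at -112 in Herpud1 and at 15 in Trib3.

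Endoplasmic reticulum chaperone and degradation genes had 3 higher and 0 lower of 33 kept, with a median of 0.16 and 29 of 33 above 0. Dnajb9, a chaperone partner in the ER lumen, was at 10.84 with palmitic acid, 9.65 with linoleic acid, 9.78 with oleic acid and 9.82 in the control (1.19). Sec24d, a coat protein of vesicles that leave the ER, was at 10.00, 9.34, 9.33 and 9.13 (0.66). Herpud1, of ER-associated degradation, differed by 0.59. Palmitic acid was the high array in all 3. Hspa5, the main ER chaperone, was at 13.35, 12.95, 13.06 and 13.02 (0.40), in the bright range where differences were narrow. The UPR element, searched as TGACGTGG, was in 1 of 29 windows of this list (3.45%), in 0.714% of all windows and in 1.12% of those of kept genes.

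Of 26 kept heat shock and chaperone genes 1 was higher and 0 lower, with a median of 0.18, and the gene was Dnajb4 (0.61). Among 20 aminoacyl-tRNA synthetase genes, which load amino acids onto transfer RNA, 0 were past the line and 17 were above 0, with a median of 0.09. Amino acid transporters had 1 higher and 0 lower of 19 kept, with a median of 0.09. That one was Slc38a1, a glutamine carrier, at 10.78 with palmitic acid and 10.00 with linoleic acid, 10.02 with oleic acid and 10.03 in the control (0.78).

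Antioxidant genes of the factor NRF2 had 2 higher and 0 lower of 26 kept, with a median of 0.11. Gclm, a subunit of the enzyme that starts glutathione synthesis, was at 12.20 with palmitic acid, 11.53 with linoleic acid, 10.94 with oleic acid and 11.47 in the control (0.67). Srxn1, which repairs peroxiredoxins, was at 12.12, 11.52, 11.23 and 11.38 (0.60). Oleic acid gave the lowest of the 4 values in both, so the unsaturated acids did not lie together. Hmox1, the heme oxygenase, was at 12.34, 11.89, 11.55 and 11.70, short of the line. The antioxidant element, searched as TGACNNNGC, was in 9 of 21 windows of the list (42.9%), in 3781 of the 27025 windows and in 16.8% of those of kept genes. The list was chosen as genes of NRF2, so its larger share is no result about the acids.

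Autophagy and mTORC1 control genes had 5 higher and 0 lower of 40 kept, with a median of 0.14. Besides Sesn2 these were Fnip2, a partner of folliculin (0.75), and 3 genes of autophagosome formation, Atg14 (0.74), Atg13 (0.62) and Atg12 (0.61). Fnip2 was at 11.44 with palmitic acid, 10.69 with linoleic acid, 10.67 with oleic acid and 10.47 in the control. Atg14 was at 8.61, 7.86, 7.97 and 7.93 in that order, and again palmitic acid alone was high. Lysosomal hydrolase and proton pump genes had 0 past the line of 37 kept and a median of 0.02.

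**Figure D4:**
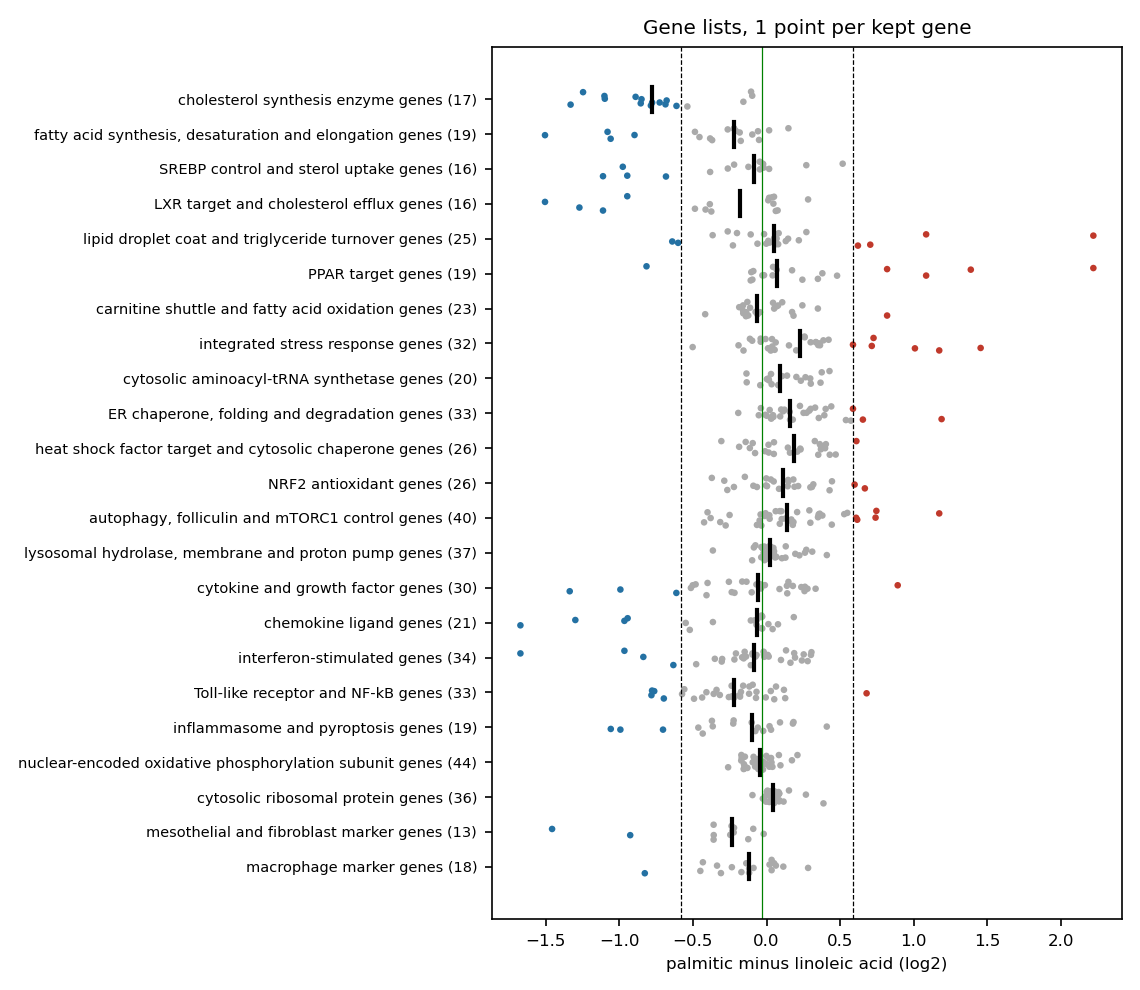
Palmitic minus linoleic difference (log2) of each kept gene in 23 lists, with the number of kept genes in brackets, the list median as a black bar, the median of all kept genes (-0.03) as a green line and 1.5-fold as dashed lines. Genes can stand in several lists. The cholesterol synthesis genes lie to the left with a median of -0.78, and the integrated stress response genes reach to the right with a median of 0.23.

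Cytokine and growth factor genes had 1 higher and 3 lower of 30 kept, with a median of -0.06. Csf2, the granulocyte-macrophage colony-stimulating factor gene, was at 7.44 with palmitic acid, 8.78 with linoleic acid, 8.56 with oleic acid and 8.97 in the control (-1.34). Il18, an inflammasome-released cytokine, was at 9.86, 10.85, 10.35 and 10.72 (-0.99). Both were low in the palmitic acid array, and oleic acid lay in between or near the others. Lif was at 6.84 with palmitic acid and between 7.45 and 7.73 in the other arrays (-0.61). Hbegf, a growth factor of the EGF family, was the higher one, at 10.94, 10.05, 10.39 and 9.91 (0.89).

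The inflammatory genes Tnf, Il1b and Ptgs2 were within the line. Tnf was at 13.85 with palmitic acid, 13.71 with linoleic acid, 13.64 with oleic acid and 13.76 in the control (0.14). Il1b was at 13.65, 13.75, 13.78 and 13.78 (-0.10), and Ptgs2, the inducible prostaglandin synthase, differed by -0.05. All were bright in all 4 arrays, the control included, and the highest value of any probe was 14.4. Il6 was at 12.46 with palmitic acid, 12.96 with linoleic acid, 12.63 with oleic acid and 13.05 in the control (-0.50).

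Chemokine genes had 0 higher and 4 lower of 21 kept, with a median of -0.06. Cxcl9, an interferon-induced attractant of T cells, was at 8.88 with palmitic acid, 10.56 with linoleic acid, 10.09 with oleic acid and 10.17 in the control, the lowest difference of all named genes at -1.67, or 3.19-fold lower with palmitic acid. Cxcl11, a ligand of the same receptor, was at 7.25, 8.21, 8.26 and 8.15 (-0.97). Their companion Cxcl10 was bright in all arrays and differed by -0.07. Ccl22, a ligand of CCR4, was at 10.03 with palmitic acid, 11.33 with linoleic acid, 10.95 with oleic acid and 11.19 in the control (-1.30). Ccl17, the other CCR4 ligand, was at 8.62, 9.56, 9.27 and 9.31 (-0.94). In all 4 the palmitic acid array was the lowest. Ccl2, a monocyte attractant, differed by -0.03.

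Interferon-stimulated genes had 0 higher and 4 lower of 34 kept, with a median of -0.08, so the list as a whole did not follow Cxcl9 and Cxcl11. The other lower genes were Socs1, the feedback inhibitor of cytokine receptors, at 9.56 with palmitic acid, 10.40 with linoleic acid, 10.10 with oleic acid and 10.08 in the control (-0.84), and Iigp1, a GTPase of pathogen defence (-0.63).

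Toll-like receptor and NF-kB genes had 1 higher and 4 lower of 33 kept. Their median was -0.22 and 27 of 33 were below 0. Ikbke, a kinase of interferon induction, was at 10.92 with palmitic acid, 11.70 with linoleic acid, 11.71 with oleic acid and 11.48 in the control (-0.78). Bcl3, an atypical inhibitor of NF-kB, was at 10.65, 11.43, 11.30 and 11.25 (-0.78). Tlr8 was lower too (-0.70), and in each of these genes oleic acid lay with linoleic acid. The paired adaptors of TLR4 lay on opposite sides. Ticam2 was at 9.38, 10.14, 9.96 and 10.03 (-0.76), whereas Ticam1 was at 11.00, 10.32, 10.18 and 10.14 (0.68).

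Inflammasome genes had 0 higher and 3 lower of 19 kept, with a median of -0.10. Mefv, which codes for the sensor pyrin, was at 9.08 with palmitic acid, 10.14 with linoleic acid, 10.04 with oleic acid and 10.04 in the control (-1.06). Pycard, the adaptor ASC, was at 8.77, 9.47, 9.57 and 9.45 (-0.70), and Il18 was the third. Nlrp3 itself differed by -0.37. Costimulation and antigen presentation genes had 0 higher and 1 lower of 19 kept, with a median of -0.07. The lower one was Icosl, a ligand of the T cell receptor ICOS, at 8.39 with palmitic acid and between 9.71 and 9.77 in the other 3 arrays (-1.38). Of the 19 genes 4 were above 0. The furthest was Cd86, at 10.73 with palmitic acid, 10.18 with linoleic acid, 10.35 with oleic acid and 9.94 in the control (0.55), short of the line.

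Genes of alternative activation had 0 higher and 2 lower of 16 kept, with a median of 0.00, and the lower genes were Ccl22 and Ccl17 again. Arg1, the arginase of that state, differed by 0.02. Prostaglandin and leukotriene genes had 0 higher and 2 lower of 17 kept, with a median of -0.07, and both were receptors. Ptger4, a receptor of prostaglandin E, was at 7.76 with palmitic acid, 9.07 with linoleic acid, 8.78 with oleic acid and 8.92 in the control (-1.31), and Cysltr1 was at 8.09, 9.0, 9.04 and 8.87 (-0.92).

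Among 30 kept G protein-coupled receptor genes 2 were higher and 7 lower, with a median of -0.11. Gpr18 was at 7.65 with palmitic acid and between 9.09 and 9.18 in the other 3 arrays (-1.49). Gpr85, an orphan receptor gene, was at 8.48 with palmitic acid, 10.00 with linoleic acid, 9.20 with oleic acid and 9.97 in the control (-1.52). Some receptors of extracellular nucleotides were among the lower genes: P2ry13 (-1.27), P2ry14 (-0.76) and P2ry6 (-0.62), with Gpr84 and Gpr141 (-0.63) beside them. P2ry2, of the same family, went the other way, at 11.68 with palmitic acid and 11.20 with linoleic acid (0.48), short of the line. Htr2a, a serotonin receptor gene, was at 11.07, 9.91, 9.61 and 9.76 (1.15), and Cxcr4, a chemokine receptor gene, differed by 0.60. Palmitic acid alone was high in these last 2.

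Of 33 kept scavenger and efferocytosis receptor genes 3 were higher and 1 lower, with a median of -0.01. The higher genes were all of the Cd300 family of lipid-binding immune receptors. Cd300lb was at 8.47 with palmitic acid, 7.46 with linoleic acid, 8.01 with oleic acid and 7.24 in the control (1.01). Cd300a was at 9.77, 8.82, 9.91 and 8.96 (0.95), and Cd300lf at 9.33, 8.50, 8.85 and 8.42 (0.83). All 3 were above linoleic acid with oleic acid as well, Cd300a as far as with palmitic acid. Probes of this family of similar genes can share transcripts, so their values are uncertain. Complement and coagulation genes had 0 higher and 1 lower of 16 kept, with a median of -0.02, and the lower one was complement factor B, Cfb, at 10.88, 11.84, 11.56 and 11.52 (-0.96).

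Immediate early genes lay on both sides. Of 34 kept, 4 were higher and 4 lower, with a median of -0.02. Jun, the AP-1 subunit under the stress kinase JNK, was at 11.52 with palmitic acid, 10.02 with linoleic acid, 10.20 with oleic acid and 9.99 in the control, a ratio of 2.82 for palmitic over linoleic acid. Csrnp1, a nuclear factor gene, was at 11.51, 10.05, 10.35 and 9.93 (1.46). Maf, a transcription factor of resident macrophages, was at 9.58, 11.02, 10.78 and 10.71 (-1.44). In these genes oleic acid stayed near linoleic acid and the control. Mafk (0.73) and Zfp36l2 (0.60) were the other higher genes, and Ier2 (-1.01), Nr4a3 (-0.71) and Jund (-0.61) the other lower ones. The AP-1 element, searched as TGANTCA, was in 2 of 26 windows of this list (7.69%), in 8.97% of all windows and in 6.38% of those of kept genes.

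Feedback genes of the MAP kinases had 4 higher and 3 lower of 27 kept, with a median of -0.05. Dusp10, a phosphatase of JNK and p38, was at 9.57 with palmitic acid, 8.20 with linoleic acid, 8.86 with oleic acid and 8.17 in the control (1.37). Dusp1, of the same specificity, was at 12.60, 11.84, 12.52 and 11.65 (0.76), and oleic acid was close to palmitic acid. Dusp8 (0.61) and Gadd45g (0.78) were higher as well. Dusp6, the phosphatase of ERK, was at 8.71, 9.32, 10.04 and 9.25 (-0.62), so it was highest with oleic acid. Gadd45a, a growth arrest gene, was at 7.88, 9.16, 8.89 and 9.05 (-1.28), and Dusp2 differed by -0.81.

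FoxO, alpha-arrestin and insulin signalling genes had 1 higher and 2 lower of 26 kept, with a median of -0.04. Fbxo32, a ubiquitin ligase gene under FoxO factors, was at 8.54 with palmitic acid, 7.13 with linoleic acid, 7.66 with oleic acid and 7.27 in the control (1.41). Arrdc3, an alpha-arrestin that removes receptors from the membrane, was at 7.04, 8.02, 9.35 and 8.28 (-0.98), with palmitic acid at the bottom and oleic acid at the top. Bcl6, a transcriptional repressor, differed by -0.83.

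Iron genes lay on both sides, with 2 higher and 3 lower of 22 kept and a median of -0.01. Hamp, which codes for the iron hormone hepcidin, was at 9.31 with palmitic acid, 8.11 with linoleic acid, 9.28 with oleic acid and 7.99 in the control (1.20). Cp, the ferroxidase ceruloplasmin, was at 8.81, 10.44, 9.54 and 10.09 (-1.62). Lcn2, which binds bacterial siderophores, was at 10.85, 11.95, 11.72 and 11.67 (-1.10). Oleic acid thus matched palmitic acid in Hamp, lay between in Cp and lay with linoleic acid in Lcn2. Steap4, a metal reductase gene, differed by -0.69 and the heme exporter gene Flvcr1 by 0.59. Of 18 kept zinc and metallothionein genes, the zinc exporter gene Slc30a1 was higher (0.81) and Mt2 lower (-0.60), with a median of -0.02.

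Polyamine, arginine and histamine genes had 0 higher and 2 lower of 16 kept, with a median of -0.02. Hdc, which makes histamine, was at 9.27 with palmitic acid, 10.84 with linoleic acid, 10.46 with oleic acid and 10.54 in the control (-1.57). Nos2, the inducible nitric oxide synthase, was at 10.55, 11.20, 10.91 and 10.84 (-0.65). For Nos2 the linoleic acid array was above the control by 0.36, and palmitic acid was below it by 0.29.

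Cell cycle genes were mixed. G1 cyclins and inhibitors had 2 higher and 2 lower of 19 kept, with a median of -0.08. Plagl1, a zinc finger gene of growth arrest, was at 10.36 with palmitic acid, 9.04 with linoleic acid, 9.04 with oleic acid and 8.88 in the control (1.32). Ccnd2, a D-type cyclin, was at 10.76, 11.82, 12.29 and 11.77 (-1.06), and Ccnd3 was at 7.68, 8.53, 8.68 and 8.57 (-0.85). These 2 D-type cyclins were lowest with palmitic acid, while Ccnd1, of the same class, was within the line (-0.08). Ccne1, of the next cyclin class, was higher (0.61). Replication and mitosis genes had 2 higher and 2 lower of 26 kept. Bub1b, of the spindle checkpoint (1.02), and Cdt1, of replication licensing (0.90), were higher, and Tyms (-0.69) and Mki67 (-0.63) were lower. The list's median was -0.12, and 0.34 among its members at or above the 75th percentile of all values, so no direction is given.

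Matrix and matricellular genes had 4 higher and 2 lower of 25 kept, with a median of -0.07. Lrrc32, the docking protein of latent TGF-beta, was at 10.51 with palmitic acid, 9.36 with linoleic acid, 9.14 with oleic acid and 9.15 in the control (1.15). Ccn2, a matricellular protein gene, was at 9.89, 8.89, 8.47 and 8.84 (1.00). Ccn1, its relative, was higher too (0.79), as was the protease gene Plau (0.84). All 4 had their highest value with palmitic acid. Vcan, a proteoglycan gene (-0.90), and Tgfbi (-0.65) were the lower ones.

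Genes of the core machinery of the cell stayed within the line. Of 44 kept oxidative phosphorylation genes, 36 ribosomal protein genes, 36 proteasome genes and 30 hypoxia and glycolysis genes, 0 were past the line. The share over all kept genes was 3.6%, so lists of this size would hold few such genes. The medians of these lists were -0.05, 0.04, 0.02 and -0.03. Cell death genes had 0 higher and 1 lower of 22 kept, with a median of -0.04, and the lower one was the death receptor gene Fas, at 8.63 with palmitic acid, 9.54 with linoleic acid, 9.34 with oleic acid and 9.48 in the control (-0.91). Actb, a cytoskeletal reference gene, differed by -0.03. Together the lists held 1036 kept genes, of which 131 were past the line (12.6%), against 3.6% of all kept genes. The lists were chosen with earlier results of these data known, so the larger share is not a result about them. Of the 402 genes past the line, 271 were in no list.

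Some of the furthest genes belonged to no list. Rsbn1 was at 10.76 with palmitic acid, 9.33 with linoleic acid, 9.50 with oleic acid and 9.15 in the control (1.44). Others above 1.1 were Zfp874b (1.33), a zinc finger gene, Armcx6 (1.32), Eps8 (1.30), a regulator of actin, Tnfrsf26 (1.17), a TNF receptor family gene, Zbtb10 (1.12) and Klhl38 (1.11). The Zfp874b probe was dim without palmitic acid, at 6.81 with linoleic acid. On the lower side Shisa3 was at 9.37 with palmitic acid, 10.84 with linoleic acid, 9.49 with oleic acid and 10.70 in the control (-1.47), so the low value was shared with oleic acid. Bcor, a co-repressor gene (-1.45), Itga1, an integrin subunit gene (-1.44), Pot1b, of telomere protection (-1.39), Vnn3, of the vanin family (-1.36), and Tagap (-1.35) followed. Klra2, one of a family of similar lectin receptor genes, was at 6.18 with palmitic acid and 7.47 with linoleic acid, a dim and uncertain difference (-1.29, and -0.38 with low values set to the median).

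Where oleic acid lay divided the 402 genes unevenly. Oleic acid has 18 carbons as linoleic acid has and 1 double bond, so it shares chain length with one acid and is intermediate in double bonds. Its value was nearer to linoleic acid in 308 genes and nearer to palmitic acid in 94 (23.4%). Among higher genes 22 of 177 were nearer to palmitic acid (12.4%), and among lower genes 72 of 225 (32.0%). These positions use the arrays that chose the genes and are a description. The higher genes with oleic acid closest to palmitic acid were Plin2, Hamp, Hilpda, Serpinb9 and Dusp1, and the lower ones Pmvk, Kit, Hmgcs1, Idi1 and Nr4a3. Genes with oleic acid closest to linoleic acid were Plagl1, Cipc, Plekhm1, Sesn2 and Ercc6 on the higher side and Tmem120b, Siglece, Usp21, Ikbke and Tnfaip8l3 on the lower side. The control was nearer to linoleic acid in 394 of the 402 genes, 176 of the 177 higher and 218 of the 225 lower ones. In those genes palmitic acid lay further from the control than linoleic acid did. The differences are thus not particular to this pair of acids.

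**Figure D5:**
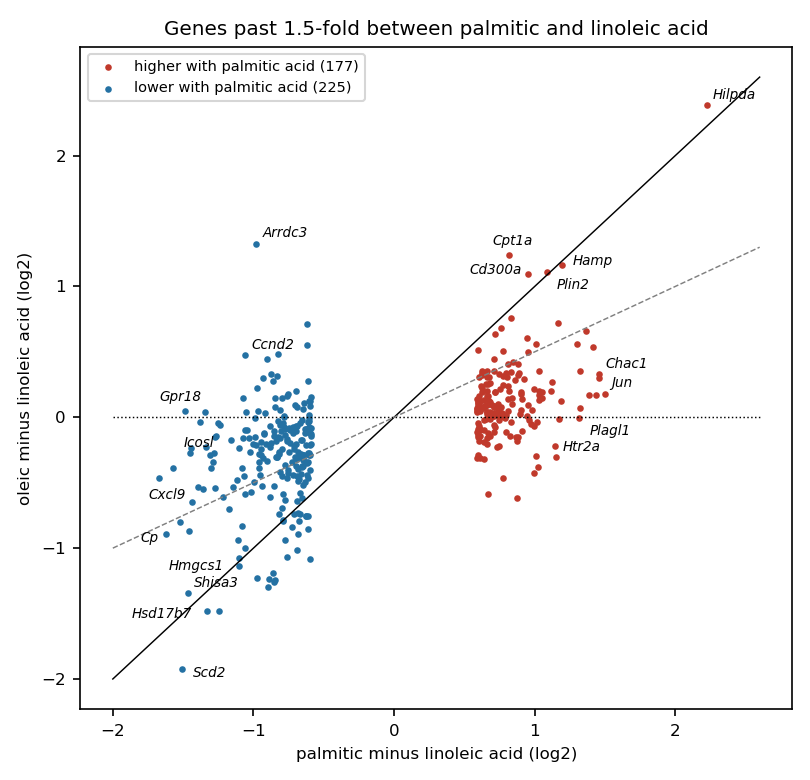
Each point is 1 of the 402 genes past 1.5-fold, with its palmitic minus linoleic difference on the horizontal axis and its oleic minus linoleic difference on the vertical axis (log2), differences that share the linoleic acid array. Genes on the solid line had the same value with oleic and palmitic acid, genes on the dotted line the same value with oleic and linoleic acid, and the dashed grey line lies midway. Hilpda, Plin2, Hamp and Hmgcs1 lie at the solid line, Plagl1 and Gpr18 at the dotted line, and Arrdc3 far above it.

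Marker genes were checked for the labelled cell type and for cells that adhere alongside it. Of 20 measured macrophage markers 18 were kept, and the mean level over the 20 was 10.09 with palmitic acid and 10.23 with linoleic acid. The median difference of the kept markers was -0.12, and 0.02 among those at or above the 75th percentile of all values. Adgre1, a defining surface receptor gene of mouse macrophages, was at 12.83 with palmitic acid, 12.89 with oleic acid and 12.98 in the control, and its palmitic minus linoleic difference was -0.17. Fcgr1, the high-affinity IgG receptor, was the 1 marker past the line, at 10.03, 10.86, 11.34 and 10.69 (-0.83).

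Mesothelial and fibroblast markers had a lower value with palmitic acid in 13 of 13 kept members, of which 0 were higher and 2 lower by 1.5-fold, with a median of -0.24. Their mean level over 20 measured genes was 7.85 with palmitic acid, 8.14 with linoleic acid, 8.07 with oleic acid and 8.09 in the control. Pdgfrb was at 8.74, 10.20, 9.33 and 10.04 (-1.46) and Pdgfra at 8.33, 9.26, 9.13 and 9.19 (-0.93). The part of such cells in the lower genes of the lists above was not tested, and in pooled RNA fewer cells of a type cannot be told apart from less RNA per cell. The mesothelial genes Upk3b, Upk1b, Krt19 and Lrrn4 and the fibroblast genes Lum, Thy1 and Dpt did not reach the brightness filter.

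Lymphocyte and granulocyte markers were mostly under the filter. Of the B cell markers 3 of 10 were kept (median 0.08, with Spib at -0.65 and dim), and of the T and NK cell markers 2 of 13 (median -0.04, 0 past the line). Of the neutrophil, eosinophil and mast cell markers 3 of 19 were kept (median -0.03), with Kit at 6.85 with palmitic acid, 7.64 with linoleic acid, 6.85 with oleic acid and 7.30 in the control (-0.79). Dendritic cell markers had 6 of 12 kept and a median of -0.15, with Ccl22 the 1 gene past the line, and Itgax, which codes for CD11c, differed by -0.01.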

How the data were processed

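Expression was measured on 4 arrays, 1 per group. The authors deposited log2 values from RMA, per the submitters' processing notes, a method that corrects background, normalises the arrays to one distribution and summarises probes. Its version and summary level and the build were not given in the sources used here. Normalising arrays to a common distribution can compress differences that touch many genes. Depth does not apply to arrays, and their number limits the precision.

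The platform annotation lists 23410 of 35556 probes, 21789 with exactly 1 gene and 1621 with several, and leaves 12146 without a listed gene. Entrez IDs were looked up in a RefSeq table (GRCm38.p6), which held 21698 of the 21789, and 0 symbols needed an update. Probes of 999 genes with several probes were averaged. The filter is one of brightness and not a detection call.

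Differences were computed with Python 3.11.15, numpy 2.4.6, pandas 2.3.3 and matplotlib 3.10.9. The counting was run on simulated data, which checks the code and says nothing about the noise of these arrays. Named were the 20 furthest genes each way without predicted models and small RNA genes, up to 8 members of each list with every member past 1.5-fold, a set of reference genes, the genes next to the line and those with oleic acid closest to either acid. The 43 functional and 6 marker lists hold 1305 genes, of which 1205 were measured. The comparison, the members and the lists were chosen with earlier results of these data known. Of the reference genes Pdk4 did not reach the filter, and Gapdh has no probe of exactly 1 gene and is not analysed here.

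Alternatives were centring each array, repeating the quantile normalisation, no filter and 3 other filters, setting low values to the median, the brightest probe, genes with 1 probe, and a 2-fold line. Motifs were searched in RefSeq windows of 300 bases on both strands. Each motif was chosen to match its list, so a larger share in that list is no result about the acids.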

Additional observations from a re-analysis of the deposited data

Results flagged for a closer look

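Probes outside the comparison also differed. Of the 12146 probes with no listed gene in the annotation, 5620 reached the brightness filter. Of these, palmitic acid was at least 1.5-fold above linoleic acid in 275 and below it in 95 (6.58% either way), between -2.42 and 2.51. In 175 it was at least 1.5-fold above both linoleic acid and the control. Of the 848 probes with several genes that reached the filter, 4 were higher and 9 lower (1.53%), and 2 were higher than with both linoleic acid and the control. What these probes measure is not analysed here.

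In 2 gene lists the medians with the acids lay on opposite sides of the control and each at least 0.1 from it. Other lists, among them fatty acid synthesis, lay on opposite sides by less than that with at least 1 acid. For the cholesterol synthesis enzyme genes the median was -0.59 with palmitic acid and 0.14 with linoleic acid, and the median of palmitic minus linoleic acid was -0.78. For the LXR target and cholesterol efflux genes the medians were -0.11 and 0.13, and the median of palmitic minus linoleic acid was -0.18. These differences were not tested, since each group is 1 array.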

How the results depend on the processing

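Counts of genes past 1.5-fold stayed within 1.5 times of 177 higher and 225 lower under the other scalings, filters and probe rules. With the line at 2-fold they were 31 and 51, of which 37.8% were higher. Higher genes made up 53.1% of those past the line when each array was centred on its median, against 44.0%.

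Of 1578 values of 180 named genes under 9 alternatives, 1550 kept their side of the line, 21 of 18 genes fell inside it, 7 moved outside it and 0 changed sign. Centring gave 15 of the 21. Of 439 list medians under the alternatives, 429 stayed within 0.1 of the value reported. Among lists with a median at least 0.1 from 0, the median changed sign to 0.011 for the LXR list with no filter, and, with the filter at the 75th percentile, to 0.34 for replication and mitosis genes and 0.020 for macrophage markers. Several medians nearer to 0 crossed it too, such as that of B cell markers (0.08) to -0.042 with no filter. The filters change which members enter these medians.

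The main limit is 1 pooled array per group: a difference between the acids and one between pools cannot be told apart. No paired analysis was possible because each group has 1 array. The robust SD of the difference was 0.146 among genes with a mean of log2 7 to 8 and 0.0691 at 13 or above, against 0.196 at 9 to 10. Below 7 it was 0.206, and 5.71% of the 175 genes there were past 1.5-fold. Why the spread varies with brightness was not tested. Of the 402 genes, 381 rest on 1 probe.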

Other observations

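In 87 of the 402 genes past 1.5-fold, oleic acid lay beyond linoleic acid as seen from palmitic acid, in some of them by a very small distance. P2ry6, a receptor of uridine nucleotides, was at log2 9.89 with palmitic acid, 10.51 with linoleic acid and 11.07 with oleic acid, against 10.31 in the control. Arrdc3, Fcgr1, Ccnd2 and Dusp6 had the same order, with palmitic acid lowest and oleic acid highest of the 4 arrays. On the other side, Ppp1r15a, Htr2a, Lrrc32, Ccn2, Gclm and Ccne1 were highest with palmitic and lowest with oleic acid. In 30 genes oleic acid lay beyond palmitic acid, 26 of them lower genes such as Scd2, Lss, Hsd17b7 and Fasn. Each of these statements rests on single arrays.

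Within the proteasome list, the immunoproteasome subunit genes Psmb8, Psmb9 and Psmb10 were its 3 lowest members, at -0.24, -0.48 and -0.50 for palmitic minus linoleic acid, while the list's median was 0.02. Psmb9 was at 10.63 with palmitic acid, 11.10 with linoleic acid, 10.99 with oleic acid and 10.83 in the control. These members were singled out after their values were seen.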
